A study of Mus musculus with 48 samples.

Results

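The 10 genes described here are cadherins, tight junction proteins and factors of the epithelial-mesenchymal transition: Cdh1, Cdh2, Cdh3, Epcam, Cldn4, Cldn6, Cldn7, Vim, Snai1 and Zeb1. They were chosen by name, as epithelial and mesenchymal adhesion genes, after Cdh1 had been seen to be strongly lower in the Mll3/4 knockout, and all 10 were found among the 48321 genes of the expression table. The RNA came from mouse R1 embryonic stem cells of strain 129SV. All lines were kept in serum-free 2i medium with LIF, in which the MEK inhibitor PD0325901 and the GSK3b inhibitor CHIR99021 hold the cells in a naive pluripotent state. They grew on laminin over polyL-ornithine and were moved to fibronectin before collection. The lines compared were wild type (WT), Mll3/4 dKO, in which both histone methyltransferases were knocked out, and Mll3/4 dCD, in which both were catalytically deficient, with 3 RNA libraries each. Each genotype was represented by 1 line, so an effect of the clone and an effect of its genotype cannot be told apart, and the labels do not say whether the libraries of a line came from separate cultures. The p-values therefore rest on library-to-library spread within each line, part or all of which may be technical.

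Classical cadherins are calcium-dependent adhesion proteins that bind the same protein on the neighbouring cell and, through catenins, connect it to the actin cytoskeleton. Epithelial cadherin (Cdh1) joins embryonic stem cells into compact colonies, and in the gastrulating embryo cells that leave the epiblast lose Cdh1 and gain neural cadherin (Cdh2). Claudins form the strands of tight junctions. Snai1 and Zeb1 are zinc finger repressors that bind E-box sequences and repress Cdh1 and other epithelial genes, and vimentin (Vim) is the intermediate filament protein used to mark mesenchymal cells.

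Depth was 21090624 to 56249770 reads per library, recovered from the TPM (length-normalized transcript abundance, scaled to the same total in each library) and gene lengths. The 10 genes held 48 to 23060 reads each per library, the fewest being Cdh3 in dKO replicate 3. The targeted gene Kmt2c (Mll3) measured 19.7 to 21.9 TPM in WT, 7.44 to 7.995 in dKO and 25.3 to 28.6 in dCD. Kmt2d (Mll4) measured 65.2 to 67.4, 80.5 to 84.8 and 54.6 to 67.8 TPM, so its transcript level was not lower in dKO. Which exons were edited is not stated in the labels, so reads from elsewhere in either gene check nothing. All 10 markers of pluripotent cells looked up were measured, with a summed level of 8735 to 8852 TPM in WT, 6625 to 6673 in dKO and 6288 to 6457 in dCD. Of the 10, 8 were lower and 1 higher in dKO and 8 lower in dCD at a limma adjusted p under 0.05. Among all 16179 tested genes 28.4% were lower and 43.4% higher in dKO, and 29.5% lower in dCD. Only 1 of these markers, Utf1 in dKO, was lower by at least 2-fold, and none was in dCD.

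In WT the most abundant of the 10 transcripts was Vim, at 361.8 ± 6.58 TPM (SD, n = 3), above Cdh1 at 169.3 ± 5.03, Cldn4 at 150.3 ± 1.44 and Epcam at 101.6 ± 8.001 TPM. Cldn6 followed at 39.8 ± 1.35 and Cdh3 at 16.7 ± 0.0853 TPM, and Zeb1, Snai1, Cldn7 and Cdh2 lay between 13.1 and 4.33 TPM. TPM is a level per gene length, so these levels can be set side by side, and the ranges of neighbours in this WT order did not overlap. In dKO the order was Vim, Epcam, Cldn4, Zeb1, Cdh2, Cdh1, Snai1, Cldn6, Cldn7 and Cdh3, where Zeb1 overlapped with Cdh2 and Cldn6 with Cldn7. Cdh1 thus went from the second place in WT to the sixth in dKO. In dCD Cdh1 and Vim shared the top with overlapping ranges, ahead of Cldn4, Epcam, Cldn6, Snai1, Cdh2, Zeb1, Cldn7 and Cdh3.

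**Figure D1:**
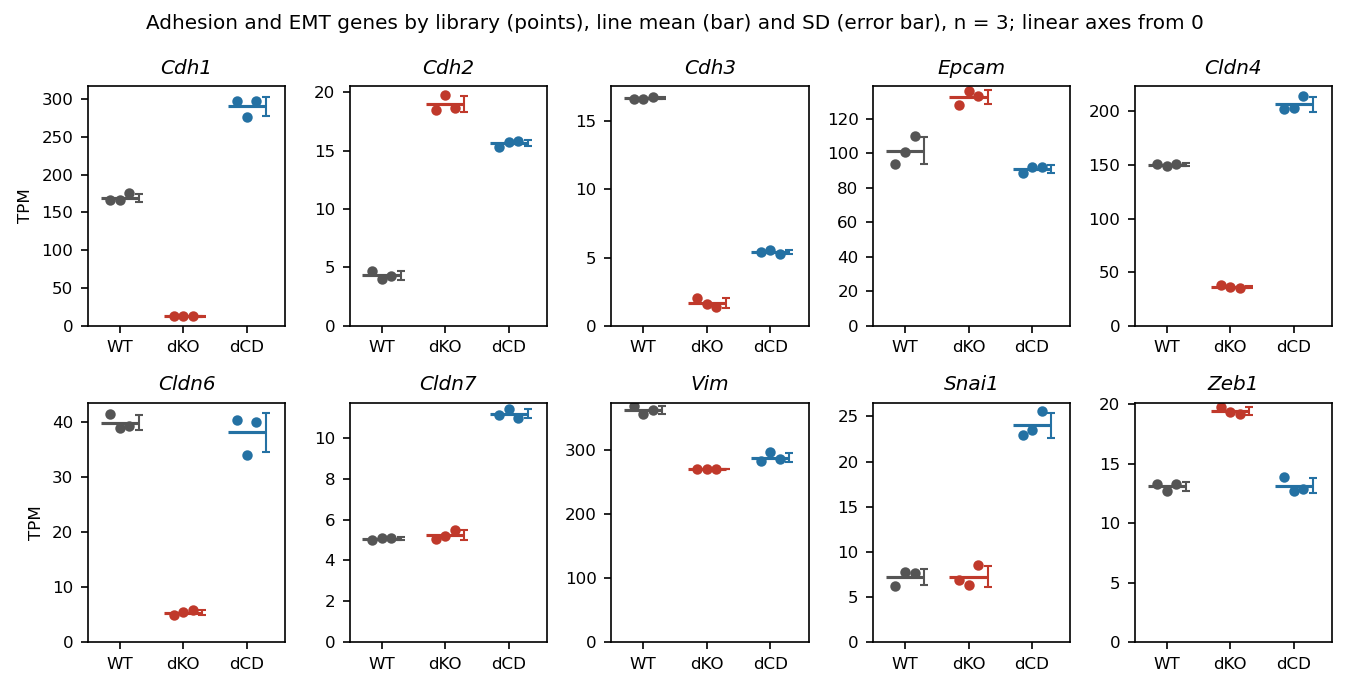
Level of each of the 10 genes in TPM (vertical axes, linear from 0) in the 3 libraries of WT, dKO and dCD, with points for libraries, horizontal bars for line means and error bars for the SD (n = 3). Cdh1, Cdh3, Cldn4 and Cldn6 were lowest in dKO, Cdh2 was above WT in both mutant lines, and Snai1 and Cldn7 were highest in dCD.

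The contrast of dKO with WT is the one that drew attention to Cdh1, so its values are given as a description without a test. In 8 of the 10 genes the dKO and WT libraries did not overlap, 5 with lower and 3 with higher levels in dKO, in a comparison in which 74.4% of all 16179 tested genes did not overlap, 45% with higher and 29.4% with lower levels, and 71.8% passed the limma test. Log2 fold changes here are on the log2(TPM + 1) scale, whereas changes written as a multiple are ratios of mean TPM without the added 1. At least 2-fold differences on the log2 scale were found for Cdh1, Cdh3, Cldn4 and Cldn6, which were lower, and Cdh2, which was higher. Of all tested genes 13.9% passed both that fold and the limma test, 6.01% higher and 7.89% lower. The reason for the choice named dKO and not dCD, but earlier results of these data were known when it was made. The contrast of dCD with WT shares the WT libraries and was tested with limma over all genes. Its p-values may therefore not be independent of the choice. Of the 10 genes 8 changed at an adjusted p under 0.05, 5 higher and 3 lower, where 58.4% of all tested genes passed, 28.9% higher and 29.5% lower. The libraries of these 8 genes did not overlap between dCD and WT, as was so for 63.5% of all tested genes, 31.2% higher and 32.3% lower. On the same scale 4 of the 10 changed at least 2-fold in dCD (Cdh2, Cdh3, Cldn7 and Snai1), 3 higher and 1 lower, against 6.94% of all tested genes, 4.62% higher and 2.32% lower. Cldn7 only just met that fold, at 1.001 on the log2 scale, and lay under it with a pseudocount of 5 TPM (0.68), without WT replicate 1 (0.994) and without dCD replicate 2 (0.987). Its value was larger with a pseudocount of 0.1 TPM (1.12), with voom (1.12) and with quantile normalization (1.025). The median log2 fold change of the 10 genes was -0.21 in dKO and 0.23 in dCD, beside 0.10 and -0.01 over all tested genes.

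**Figure D2:**
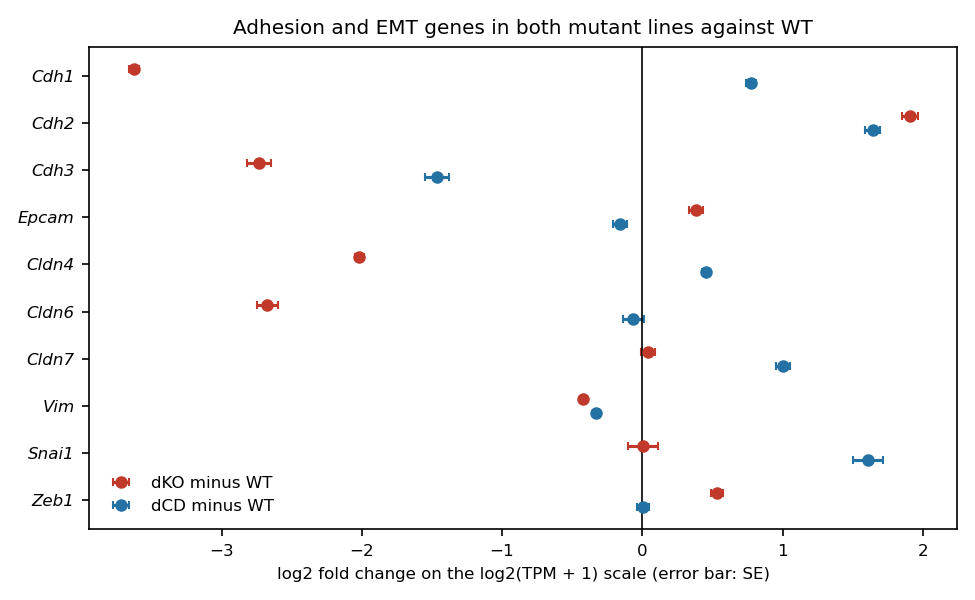
Log2 fold change of each gene on the log2(TPM + 1) scale (horizontal axis) in dKO minus WT (red) and dCD minus WT (blue), with error bars for the SE from the fit over 9 libraries. Both contrasts share the WT libraries. Cdh1 lay at -3.63 in dKO and 0.77 in dCD, whereas Cdh2 was positive and Cdh3 negative in both.

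Promoter windows, from 250 bases before to 50 after the start site, were found in RefSeq (GRCm38.p6) for 6 of the 10 genes, as 7 windows: Epcam, Cldn4, Cldn6, Cldn7 (2 windows), Vim and Snai1. They were searched for the E-box CAGGTG on both strands, that is CAGGTG or CACCTG, the letters that Snai1 and Zeb1 proteins are known to bind. Of the 7 windows 5 held a match, as did 20.2% of all 32851 promoter windows of the same length, and the windows without one were that of Vim and the upstream window of Cldn7. A match is a description of letters and says nothing about binding. The 4 windows below show genes that differed in their response: Cldn4 and Cldn6 were lower in dKO, Epcam was higher in dKO, and Snai1 was higher in dCD. Capitals mark the E-box matches, and each sequence reads 5′ to 3′ on the strand of its gene.
Cldn4, chr5:134946885-134947184, minus strand: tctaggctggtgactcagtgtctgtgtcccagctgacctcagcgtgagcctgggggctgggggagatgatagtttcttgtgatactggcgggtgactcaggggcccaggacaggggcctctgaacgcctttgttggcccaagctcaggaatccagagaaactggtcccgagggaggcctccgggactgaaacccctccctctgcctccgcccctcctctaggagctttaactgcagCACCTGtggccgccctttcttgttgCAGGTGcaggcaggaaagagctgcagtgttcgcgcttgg
Cldn6, chr17:23679115-23679414, plus strand: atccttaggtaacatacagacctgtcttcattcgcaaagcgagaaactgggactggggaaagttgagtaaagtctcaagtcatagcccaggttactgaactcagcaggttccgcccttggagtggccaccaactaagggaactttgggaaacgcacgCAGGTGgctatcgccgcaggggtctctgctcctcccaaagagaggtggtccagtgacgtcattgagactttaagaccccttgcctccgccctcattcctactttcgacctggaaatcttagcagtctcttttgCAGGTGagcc
Epcam, chr17:87635729-87636028, plus strand: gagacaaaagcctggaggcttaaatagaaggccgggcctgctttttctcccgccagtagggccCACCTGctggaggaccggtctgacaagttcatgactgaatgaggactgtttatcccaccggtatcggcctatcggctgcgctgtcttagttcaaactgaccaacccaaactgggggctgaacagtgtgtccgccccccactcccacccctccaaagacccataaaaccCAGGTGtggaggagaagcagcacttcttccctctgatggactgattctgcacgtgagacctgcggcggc
Snai1, chr2:167537945-167538244, plus strand: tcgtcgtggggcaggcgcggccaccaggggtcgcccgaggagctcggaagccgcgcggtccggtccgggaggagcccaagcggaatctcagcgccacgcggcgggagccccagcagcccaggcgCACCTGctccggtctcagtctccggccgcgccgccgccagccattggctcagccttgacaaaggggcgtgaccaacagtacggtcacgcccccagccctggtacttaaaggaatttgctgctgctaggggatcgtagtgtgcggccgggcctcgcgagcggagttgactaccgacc
The matches in Cldn4 began 14 bases before and 11 bases after the start site, those in Cldn6 93 before and 40 after, those in Epcam 187 and 19 before, and that in Snai1 126 before. Epcam and Cldn6, which lay on opposite sides of WT in dKO, thus both held 2 matches. The window of Snai1 had 34 CpG dinucleotides and a GC content of 70%, against a median of 7 CpG and 52.7% over all windows, and those of Cldn4, Cldn6 and Epcam had 9, 10 and 11 CpG.

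Of the cadherins, Cdh1 measured 166, 167 and 175 TPM in the WT libraries, 12.5, 12.7 and 13.2 TPM in dKO and 298, 276 and 297 TPM in dCD. The dKO libraries were all far below and the dCD libraries all above WT, with no overlap among the lines. The mean in dKO was 13.2-fold below WT, or -3.63 on the log2 scale (SE 0.0368). In dCD, Cdh1 rose 1.71-fold over WT, or by 0.77 on the log2 scale (SE 0.0368, limma adjusted p = 5.32e-08).

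Cdh2 measured 4.73, 4.01 and 4.25 TPM in WT, 18.5, 19.7 and 18.7 TPM in dKO and 15.3, 15.7 and 15.8 TPM in dCD. Both mutant lines lay above WT without overlap, and dKO lay slightly above dCD. The log2 fold change against WT was 1.91 in dKO (SE 0.0555) and 1.64 in dCD (SE 0.0555, limma adjusted p = 4.76e-09). Placental cadherin, Cdh3, which adjoins Cdh1 on chromosome 8, measured 16.7, 16.7 and 16.8 TPM in WT, 2.08, 1.58 and 1.39 TPM in dKO and 5.38, 5.56 and 5.28 TPM in dCD. It was lower than WT in every library of both mutant lines, by 9.92-fold in dKO and 3.09-fold in dCD, where the log2 fold change was -1.47 (SE 0.0853, limma adjusted p = 2.28e-07). Cdh3 was therefore below WT in the line in which Cdh1 was above it.

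The make-up of the cadherin transcripts differed among the lines. Cdh1 supplied 78.0%, 78.5% and 78.8% of the summed TPM of 22 cadherin genes in the WT libraries, 19.9%, 19.8% and 21.1% in dKO and 85.6%, 85.0% and 85.5% in dCD. Cdh2 supplied 2.01% ± 0.184 in WT, 30.0% ± 0.764 in dKO and 4.595% ± 0.225 in dCD (SD, n = 3). The ratio of Cdh2 to Cdh1 TPM was 0.0241 to 0.0285 in WT, 1.41 to 1.56 in dKO and 0.0514 to 0.0570 in dCD. Cdh2 exceeded Cdh1 in all 3 dKO libraries and in none of the other libraries. The summed level of all 22 genes was 215.9 ± 5.61 TPM in WT, 63.2 ± 0.717 TPM in dKO and 340.1 ± 13.2 TPM in dCD.

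The yardstick for counts of other cadherins was the limma test over 16179 genes. It called 43.4% of them higher and 28.4% lower for dKO. For dCD it called 28.9% higher and 29.5% lower. Of the 19 other cadherin genes listed, 6 passed the filter on low values. In dKO 3 were higher and 3 lower, and in dCD 2 were higher and 1 lower. In dKO, 1 of the higher genes, Cdh13, reached 1 TPM in dKO libraries alone and 1 of the lower genes, Cdh15, in WT libraries alone, so each passed the filter through the line where it was high and had to differ. Cdh13 was singled out after its values were seen. Without both, 2 were higher and 2 lower, and leaving out any dKO library also left 2 higher, and leaving out any WT library 2 lower. Cdh22, 1 of the 2 still lower without both, reached 1 TPM in WT and dCD libraries alone, so its lower level in dKO was built in. Cdh24, a type II cadherin, made up 29.3% ± 1.16 of the cadherin sum in dKO against 5.54% ± 0.326 in WT (SD, n = 3), although its own level rose by a log2 fold change of only 0.59 (limma adjusted p = 4.86e-06), from 11.96 ± 0.831 to 18.5 ± 0.636 TPM. Cdh6, known from kidney and neural crest, rose from 0.0809 ± 0.0701 TPM in WT, where the libraries held 0, 4 and 2 reads, to 4.61 ± 0.319 TPM in dKO (limma adjusted p = 3.17e-09) and 6.77 ± 0.500 TPM in dCD (limma adjusted p = 2.58e-09). Cdh6 passed the filter through mutant libraries alone, so a higher level there was built in. Retinal cadherin, Cdh4, fell in both lines, from 9.94 ± 0.396 to 2.91 ± 0.513 TPM in dKO and 1.53 ± 0.129 TPM in dCD, with log2 fold changes of -1.49 and -2.11 (limma adjusted p = 2.55e-07 and 4.45e-08). With no filter on low values the dCD counts for this list became 6 higher and 2 lower, and at a minimum of 5 TPM the 3 lower genes in dKO became 1.

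**Figure D3:**
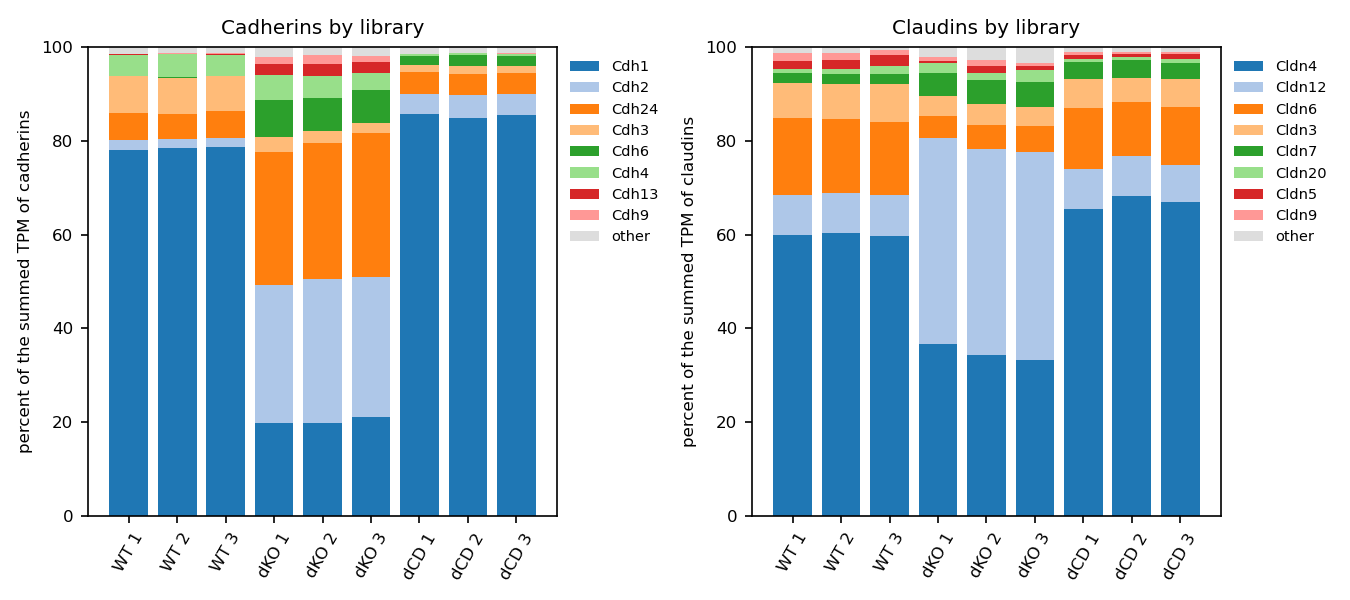
Percent of the summed TPM (vertical axes) supplied by each cadherin (left, 22 genes) and each claudin (right, 22 genes) in every library of WT, dKO and dCD, with genes under 1% in every library pooled as other. Cdh1 filled about 78% of the WT bars and about 20% of the dKO bars, and Cldn12 about 44% of the claudin bars in dKO.

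Of the claudins, Cldn4 measured 151, 149 and 151 TPM in WT, 37.7, 36.0 and 35.5 TPM in dKO and 202, 203 and 214 TPM in dCD. As with Cdh1, the dKO libraries were lowest and the dCD libraries highest, without overlap. The dKO mean was 4.13-fold below WT, with a log2 fold change of -2.02 (SE 0.0311). In dCD the log2 fold change of Cldn4 was 0.45 (SE 0.0311, limma adjusted p = 7.84e-07).

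Cldn6, a claudin of early embryonic epithelia, measured 41.3, 38.8 and 39.2 TPM in WT, 4.89, 5.44 and 5.89 TPM in dKO and 40.3, 34.0 and 40.0 TPM in dCD. Its dKO mean was 7.36-fold below WT, with a log2 fold change of -2.67 (SE 0.0733). The dCD libraries overlapped with WT, and the log2 fold change of -0.06 (SE 0.0733) did not pass the test (limma adjusted p = 0.481).

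Cldn7 measured 5.01, 5.12 and 5.08 TPM in WT, 5.04, 5.19 and 5.50 TPM in dKO and 11.1, 11.4 and 10.95 TPM in dCD. The WT and dKO libraries overlapped at a log2 fold change of 0.04 (SE 0.0508), whose sign was negative under median-ratio scaling between libraries (-0.04), while dCD lay above both. In dCD Cldn7 rose 2.199-fold, or by 1.001 on the log2 scale (SE 0.0508, limma adjusted p = 8.47e-08). The 3 claudins thus had 3 patterns across the lines, with Cldn4 lower in dKO and higher in dCD, Cldn6 lower in dKO with dCD overlapping WT, and Cldn7 higher in dCD with dKO overlapping WT.

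Of all tested genes 28.4% were lower and 43.4% higher in dKO, and 29.5% lower and 28.9% higher in dCD. Of the other 19 claudin genes listed, 6 passed the filter, of which 4 were lower and 1 higher in dKO and 3 lower and 1 higher in dCD. The lower genes included Cldn19, which passed the filter through WT alone and had to be lower elsewhere, and without it 3 were lower in dKO and 2 in dCD. Cldn3, the neighbour of Cldn4, fell from 19.4 ± 1.17 to 4.48 ± 0.228 TPM in dKO, or by -1.90 on the log2 scale (SE 0.0779, limma adjusted p = 6.97e-09). Cldn12, a claudin of divergent sequence, rose in dKO from 21.4 ± 0.406 to 46.1 ± 1.02 TPM (log2 fold change 1.07, limma adjusted p = 8.45e-10). It then supplied 44.0% ± 0.207 of the summed claudin TPM, more than Cldn4 at 34.8% ± 1.75 (SD, n = 3), whereas in WT it supplied 8.54% ± 0.0838 and Cldn4 60.04% ± 0.287. The claudin sum was 250.3 ± 3.52 TPM in WT, 104.7 ± 1.87 in dKO and 308.6 ± 11.2 in dCD. The median log2 fold change of the 6 claudins was -1.08 in dKO and -0.42 in dCD, and -1.20 and -0.36 without Cldn19. At a minimum of 5 TPM the lower claudins became 1 in dKO and 0 in dCD, and with no filter the higher ones became 4 in each line.

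Epcam encodes the epithelial cell adhesion molecule, an adhesion protein outside the cadherin family that embryonic stem cells express. It measured 93.9, 100.9 and 109.9 TPM in WT, 128, 136 and 133 TPM in dKO and 88.4, 92.2 and 91.9 TPM in dCD. Unlike Cdh1, Cdh3, Cldn4 and Cldn6, it was higher in dKO than in WT in every library, with a log2 fold change of 0.38 (SE 0.0498). In dCD Epcam fell slightly, by 0.16 on the log2 scale (SE 0.0498, limma adjusted p = 0.0205). That call was lost without WT replicate 3 (log2 fold change -0.10, limma adjusted p = 0.0585), without dCD replicate 1 (-0.14, limma adjusted p = 0.0689) and with no filter on low values (-0.16, limma adjusted p = 0.0508), with adjusted p of at most 0.0689 over 18 alternatives.

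The transcription factors and Vim did not follow 1 pattern. Snai1 measured 6.18, 7.80 and 7.66 TPM in WT, 6.85, 6.36 and 8.60 TPM in dKO and 23.0, 23.5 and 25.6 TPM in dCD. The WT and dKO libraries overlapped at a log2 fold change of 0.01 (SE 0.106), which ranged from -0.11 to 0.09 over the alternatives, so it had no direction. In dCD Snai1 rose 3.33-fold, or by 1.61 on the log2 scale (SE 0.106, limma adjusted p = 5.73e-07), in the same libraries in which Cdh1 was above WT.

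Zeb1 measured 13.3, 12.7 and 13.3 TPM in WT, 19.8, 19.3 and 19.2 TPM in dKO and 13.9, 12.7 and 12.9 TPM in dCD. It was higher in every dKO library than in any WT or dCD library, with a log2 fold change of 0.53 in dKO (SE 0.0433). In dCD it overlapped with WT, at 0.00 (SE 0.0433, limma adjusted p = 0.935).

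Vim measured 369, 355 and 362 TPM in WT, 270.4, 270.5 and 269.5 TPM in dKO and 282, 296 and 285 TPM in dCD. Both mutant lines lay below WT without overlap, although Vim is used as a mesenchymal marker and Cdh2 was above WT in both. The log2 fold change was -0.42 in dKO (SE 0.0233) and -0.33 in dCD (SE 0.0233, limma adjusted p = 1.01e-06).

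Among 12 other transcription factors of the epithelial-mesenchymal transition, 10 passed the filter. In dKO 5 were higher and 2 lower, and in dCD 8 were higher and none lower, with median log2 fold changes of 0.64 and 0.46. Beside these stand the limma calls across the full set of 16179 genes, 43.4% higher against 28.4% lower for dKO. For dCD the full set gave 28.9% higher against 29.5% lower. Twist1, a basic helix-loop-helix factor of mesoderm and neural crest, rose from 17.4 ± 0.244 to 43.3 ± 0.655 TPM in dKO (limma adjusted p = 1.90e-10). Zeb2, the paralog of Zeb1, rose from 0.211 ± 0.0108 TPM in WT to 2.84 ± 0.0540 in dKO and 2.08 ± 0.189 in dCD (limma adjusted p = 4.35e-08 and 5.18e-07), and the forkhead factor Foxc1 rose in dCD from 0.907 ± 0.146 to 4.63 ± 0.183 TPM (limma adjusted p = 1.01e-07). Zeb2 and Sox9, both counted as higher in each mutant line, passed the filter through mutant libraries alone, so a higher level there was built in. Goosecoid, Gsc, fell in dKO from 14.7 ± 0.958 to 3.86 ± 0.648 TPM (limma adjusted p = 6.54e-08), as did Klf8, from 33.1 ± 1.27 to 22.7 ± 0.589 TPM (limma adjusted p = 7.60e-07). At a minimum of 5 TPM the higher ones became 2 in dKO and 3 in dCD.

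Among 18 mesenchymal adhesion, matrix and cytoskeleton genes, 15 passed the filter, with 5 higher and 7 lower in dKO and 11 higher and 2 lower in dCD (median log2 fold changes of -0.15 and 0.43). Across the 16179 fitted genes, limma called 43.4% higher and 28.4% lower for dKO. Its calls for dCD came to 28.9% higher and 29.5% lower. The membrane protease Mmp14 rose in dKO from 11.2 ± 0.623 to 67.0 ± 1.33 TPM (limma adjusted p = 2.15e-11), and neural cell adhesion molecule Ncam1 from 26.97 ± 0.159 to 57.8 ± 1.504 TPM (limma adjusted p = 1.24e-09). Sparc, a secreted matrix glycoprotein, fell in dKO from 254 ± 7.66 to 63.0 ± 1.39 TPM (limma adjusted p = 4.68e-12) and rose in dCD to 438 ± 8.55 TPM (limma adjusted p = 6.96e-09). The fibronectin receptor subunit Itga5 fell in dKO by 0.56 on the log2 scale (limma adjusted p = 6.04e-08). Lgals1, a galectin, rose in dCD from 125.5 ± 11.1 to 400.2 ± 11.8 TPM (limma adjusted p = 9.30e-09). The 2 genes lower in dCD, Ncam1 and fibronectin Fn1, differed by -0.18 and -0.13 (limma adjusted p = 0.00147 and 0.0192), and that count became 1 without WT replicate 1, WT replicate 3 or dCD replicate 2 and with no filter.

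Markers of other cell types that could be present differed among the lines as well. In bulk RNA, fewer cells of a type and less RNA per cell cannot be told apart. The counts below stand beside shares of all tested genes of 43.4% higher and 28.4% lower in dKO. In dCD these shares were 28.9% higher and 29.5% lower. The summed level of 10 fibroblast and feeder cell markers was 8.14 to 9.66 TPM in WT, 18.7 to 20.9 in dKO and 29.4 to 31.5 in dCD. Of the 5 tested, 3 were higher and 1 lower in dKO and 5 higher in dCD, while Col6a3, Dcn, Lum, Postn and Fap stayed under 1 TPM in every library. The 3 higher in dKO, Col1a1, Col1a2 and Col3a1, were under 1 TPM in every WT library. They passed the filter through mutant libraries alone, so a higher level there was built in. Thy1, the 1 lower in dKO, reached 1 TPM in WT and dCD libraries alone, so its lower level in dKO was built in too. Endoderm markers summed to 9.37 to 10.9, 18.3 to 19.3 and 29.3 to 31.9 TPM in WT, dKO and dCD, with 3 of 6 tested higher in dKO, 4 of 6 in dCD (3 of 5 without Sox17, singled out after its values were seen, which passed the filter through dCD alone), and Pdgfra, Afp, Ttr and Cubn under 1 TPM throughout. Foxa2 and Dab2, higher in both mutant lines, likewise passed through mutant libraries alone. For mesoderm the sums were 25.1 to 27.2, 16.4 to 19.1 and 29.6 to 33.2 TPM, with Mesp1, Lhx1 and Foxf1 under 1 TPM. Gsc, listed above among the transcription factors too, gave a mean of 14.7, 3.86 and 18.9 TPM of these sums. Of the 6 tested, 2 were higher and 2 lower in dKO, and 1 was higher and 1 lower in dCD. Kdr and Mixl1, the 2 higher in dKO, reached 1 TPM in dKO libraries alone and had to be higher there. Leaving out any 1 dKO library left 0 higher because they then missed the filter. Without both genes 4 were left, 0 of them higher and 2 lower in dKO. T, 1 of the 2 lower, reached 1 TPM in WT and dCD libraries alone, so its lower level in dKO was built in. Trophoblast markers, of an epithelial lineage, summed to 73.4 to 79.1 TPM in WT, 43.9 to 47.6 in dKO and 109.1 to 111.3 in dCD, with Tpbpa and Prl3d1 at 0 and Elf5 under 1 TPM in every library. Most of each sum was Tfap2c alone, at a mean of 54.6 TPM in WT, 30.1 in dKO and 63.7 in dCD. Eomes stands in both the mesoderm and the trophoblast list. Of the 7 tested, 3 were higher and 2 lower in dKO and 5 higher and 1 lower in dCD. The 3 higher in dKO, Cdx2, Hand1 and Plac1, were higher in dCD too and also passed through mutant libraries alone. Their part in the values of Cdh1, Cdh2, Snai1 and the junction genes was not tested.

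The remaining junction genes were read against the share of all tested genes that passed, which was 43.4% higher and 28.4% lower in dKO and 28.9% higher and 29.5% lower in dCD. Of all called genes in dKO 60.4% were higher, and 50.5% after median-ratio scaling. Among 14 tested catenins, nectins and partners of the adherens junction, 9 were lower and 3 higher in dKO, and 7 lower and 6 higher in dCD, none of the latter by 2-fold. Alpha-catenin-like Ctnnal1 fell from 46.5 ± 0.261 to 14.3 ± 0.253 TPM in dKO (limma adjusted p = 4.63e-11) and 26.7 ± 0.869 in dCD (limma adjusted p = 2.38e-08). Plakoglobin, Jup, which links cadherins in adherens junctions and desmosomes, fell in dKO from 157.8 ± 1.69 to 83.6 ± 0.914 TPM (limma adjusted p = 6.75e-10). Vinculin, Vcl, rose in both lines, by 0.50 in dKO (limma adjusted p = 2.71e-07) and 0.84 in dCD (limma adjusted p = 1.41e-08).

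Among 24 tight junction and polarity genes, all tested, 13 were higher and 10 lower in dKO and 15 higher and 5 lower in dCD, with median log2 fold changes of 0.17 and 0.31. Marveld3, higher in both lines, passed the filter through mutant libraries alone. The tricellular junction gene Ildr1 fell in dKO from 36.9 ± 1.44 to 11.2 ± 0.436 TPM (limma adjusted p = 1.78e-09). The multi-PDZ scaffold Mpdz rose in dKO from 2.599 ± 0.0138 to 10.7 ± 0.644 TPM (limma adjusted p = 1.96e-09), and junctional adhesion molecule Jam2 rose in dKO (log2 fold change 0.64, limma adjusted p = 3.16e-09) and fell in dCD (-0.32, limma adjusted p = 1.33e-06). The polarity gene Pard6b rose in dCD from 31.3 ± 1.02 to 50.3 ± 1.56 TPM (limma adjusted p = 9.36e-08).

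Of 9 tested desmosome genes, 4 were lower and 3 higher in dKO and 5 lower and 3 higher in dCD. Dsc2, higher in both lines, passed the filter through mutant libraries alone, so a higher level there was built in. Desmoplakin, Dsp, fell in dKO from 33.5 ± 1.66 to 17.2 ± 0.580 TPM (limma adjusted p = 2.30e-08). The desmosomal cadherins Dsg2 and Dsc2 moved apart in dCD, Dsg2 from 33.4 ± 1.13 to 17.0 ± 0.401 TPM (limma adjusted p = 1.27e-08) and Dsc2 from 0.689 ± 0.0904 to 8.73 ± 0.144 TPM (limma adjusted p = 9.50e-09). Perp, which is a p53 target as well as a desmosome component, rose in dKO from 7.51 ± 0.586 to 82.9 ± 2.16 TPM (limma adjusted p = 6.02e-12) and in dCD to 23.0 ± 0.304 TPM (limma adjusted p = 3.21e-09).

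Of 18 tested epithelial regulators and effectors, 13 were lower and 2 higher in dKO, 8 of the lower ones at least 2-fold, with a median log2 fold change of -0.95. In dCD 10 were higher and 5 lower, with a median of 0.30. Of the 18, 2 passed the filter through 1 line alone and had to differ, among them Rab25, which reached 1 TPM in WT libraries alone and was counted as lower in both mutant lines. Without these 2 genes, 12 were lower and 2 higher in dKO, 7 of the lower ones at least 2-fold, and 9 were higher and 4 lower in dCD. Esrp1, Myo5b and Tmem125, also lower in dKO, stayed in these counts although they reached 1 TPM in WT and dCD libraries alone. Their lower level in dKO was thus built in. Esrp1 and Tmem125 were among those lower by at least 2-fold (log2 fold changes of -1.07 and -1.16). The protease inhibitor Spint2 fell in both lines, from 118.6 ± 3.92 to 44.6 ± 0.569 TPM in dKO (limma adjusted p = 4.73e-11) and 72.9 ± 1.003 in dCD (limma adjusted p = 1.77e-08), and the microtubule-binding gene Map7 fell in dKO from 89.0 ± 4.29 to 33.0 ± 1.54 TPM (limma adjusted p = 7.02e-10). Grhl3, a grainyhead-like factor, rose in dKO from 42.3 ± 2.12 to 70.2 ± 2.81 TPM (limma adjusted p = 7.18e-07). In dCD the matriptase gene St14 rose from 58.5 ± 2.06 to 97.3 ± 6.51 TPM (limma adjusted p = 7.27e-07). At a minimum of 5 TPM the lower genes in dKO became 8 and the higher ones in dCD 6. The 2 higher in dKO became 1 under median-ratio scaling and without WT replicate 2, and the 5 lower in dCD became 3 without WT replicate 3.

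**Figure D4:**
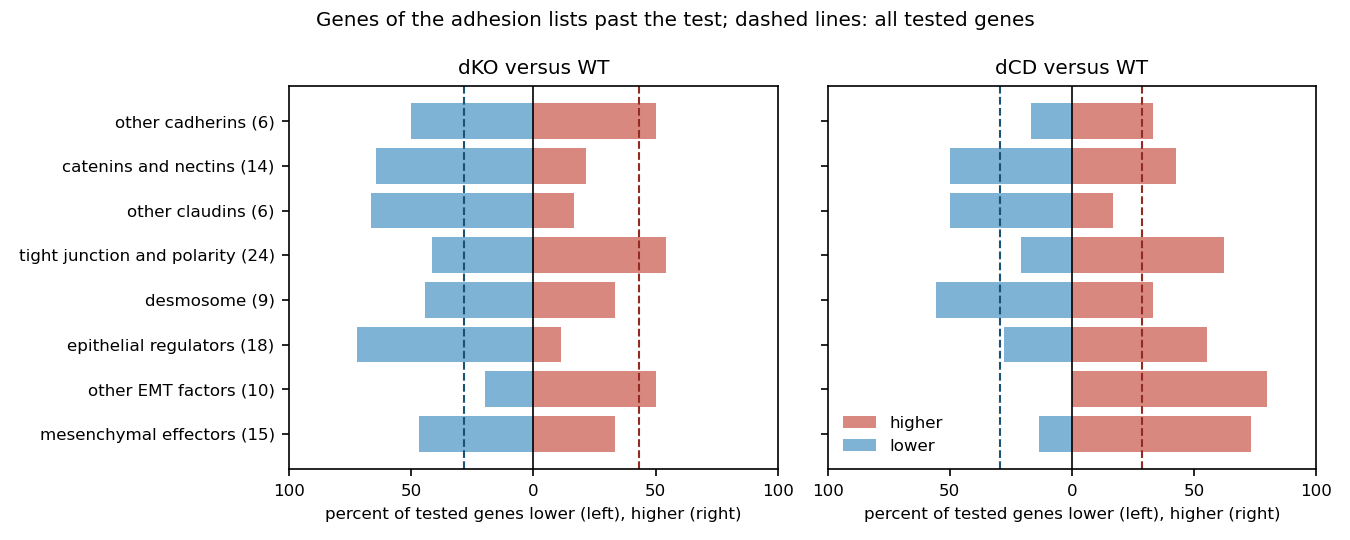
Percent of the tested genes of each list (horizontal axis, number tested in brackets) that were lower (blue, left) or higher (red, right) at a limma adjusted p under 0.05 in dKO and dCD, with dashed lines for the same shares over all 16179 tested genes. Epithelial regulators were mostly lower in dKO, 13 of 18, and mostly higher in dCD, 10 of 18.

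Gene order was taken from a GRCm38 table, while the expression table was made on mm9, so only neighbours and no positions are compared. Of the 3 protein-coding genes on either side of the adjacent Cdh3 and Cdh1, none differed from WT by 2-fold. Tango6 next to Cdh1 fell by 0.49 in dKO and 0.38 in dCD on the log2 scale (limma adjusted p = 1.32e-06 and 1.72e-05), and Zfp90 next to Cdh3 did not pass in either line (0.04 and -0.18, limma adjusted p = 0.733 and 0.126). Smpd3 was under the filter. In dCD the 2 cadherins of the pair moved in opposite directions.

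Next to Cldn4 lay Cldn3, with log2 fold changes of -1.90 in dKO and -0.12 in dCD (limma adjusted p = 0.230 in dCD), and on the other side Mettl27, at -0.02 and 0.29 (limma adjusted p = 0.829 and 0.00449). Next to Cldn6, Cldn9 fell in both lines, by 1.20 and 0.76 (limma adjusted p = 0.000121 and 0.00375), while Tnfrsf12a on its other side was at -0.07 in dKO (limma adjusted p = 0.216) and rose by 0.66 in dCD (limma adjusted p = 7.88e-07). Claudin genes that share sequence can exchange reads, and how reads with several matches were treated is not given in the sources used here.

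**Figure D5:**
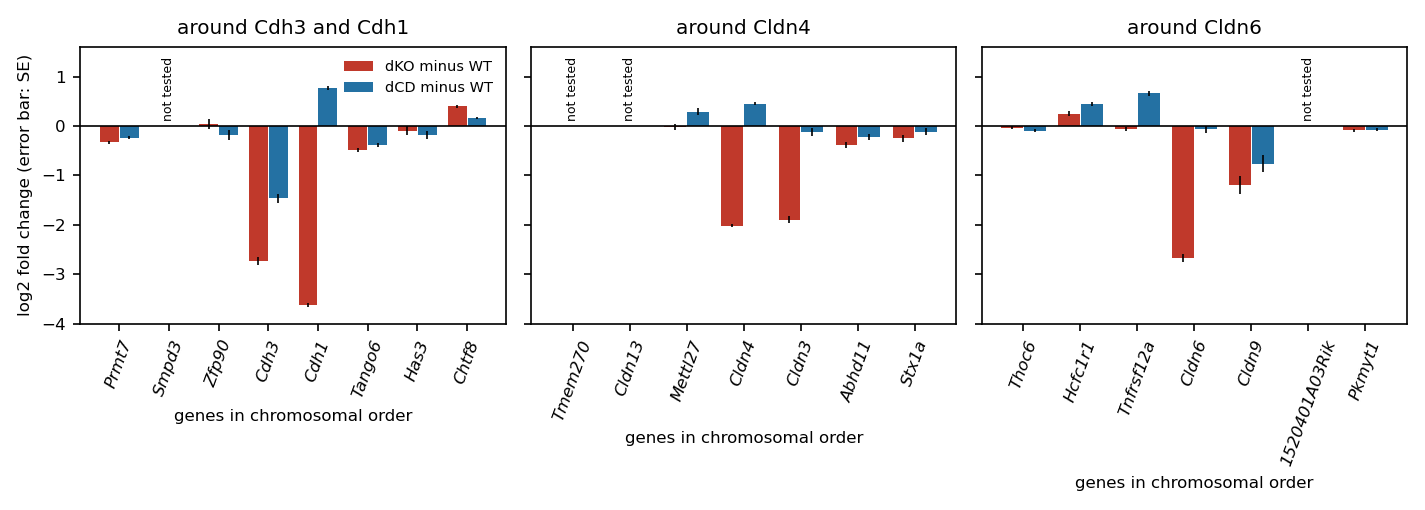
Log2 fold change (vertical axis, error bars SE) in dKO (red) and dCD (blue) against WT for genes in chromosomal order around Cdh3 and Cdh1, Cldn4 and Cldn6. In dKO the deepest bars were those of Cdh1 at -3.63, Cdh3 at -2.73 and Cldn6 at -2.67, and the adjacent Cldn4 and Cldn3 were at -2.02 and -1.90.

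The genes whose profile was most like that of Cdh1 were sought by the Euclidean distance between log2(TPM + 1) profiles over the 9 libraries, relative to the WT mean. The nearest 5 of all tested genes were Stra8 (distance 0.416), Cidea (0.788), Folr1 (0.868), Myh13 (0.982) and Pla2g10 (1.10). Stra8, the retinoic acid responsive gene of meiotic entry, measured 17.3 ± 1.30 TPM in WT, 0.317 ± 0.0577 in dKO and 32.4 ± 0.912 in dCD. Folr1, which encodes the folate receptor alpha, measured 88.9 ± 2.71, 7.87 ± 0.276 and 115.6 ± 2.23 TPM. Folr1 was also among the nearest 5 with a pseudocount of 0.1 or 5 TPM, whereas 2 and 1 of the named genes were shared at those settings. Stra8, Cidea and Myh13 were among the nearest 5 at neither of them, so their place depended on the pseudocount.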

How the data were processed

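Polyadenylated RNA of 9 libraries (3 per line) was analysed; the other 39 samples of the series were not used here. The authors deposited 1 TPM value per gene and library, beside the gene length. HISAT2, featureCounts and DESeq2 are named without versions or roles in the submitters' processing notes, and the build was mm9, per the same notes. The annotation, the strand setting and the handling of multiply matching reads are not stated, so reads of overlapping or antisense genes cannot be assigned with certainty. TPM times length gave whole reads for 100% of values within 0.01.

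Genes with at least 1 TPM in at least 3 of the 9 libraries (16179) were fitted with limma 3.58.1 in R 4.3.3 on log2(TPM + 1), using eBayes with a mean-variance trend and 1 fit for all 9 libraries. Fold changes on this scale understate those of low genes. Tests were two-sided, adjusted over all tested genes by Benjamini and Hochberg, at a threshold of 0.05. The fit was tested on simulated data. Alternatives were other pseudocounts, filters, scalings, voom on recovered reads, a fit of the 2 groups compared, a replicate block and leaving out each library. Leaving out list genes that reached 1 TPM in 1 line alone was added after seeing the data. Genes that reached 1 TPM in no library of 1 line but in both other lines were kept in the counts. Part of their difference from that line was built in by the filter. All 10 chosen genes passed the filter. The members and lists were chosen with earlier results of these data known. Genes were named by rule: the 10 genes, up to 2 called genes per list, direction and contrast by p-value with non-overlapping libraries, 3 neighbours on each side, and the 5 genes nearest to Cdh1; some genes under this rule are not reported here. Tables and plots were made with Python 3.11.15, pandas 2.3.3, numpy 2.4.6 and matplotlib 3.10.9.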

Additional observations from a re-analysis of the deposited data

How the results depend on the processing

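Counts of called genes, 11617 in dKO and 9453 in dCD, stayed within 1.5 times under every alternative at the adjusted p alone, and leaving out 1 library gave 10887 to 11587 and 8466 to 9348. Requiring at least a 2-fold change left 2249 and 1123. For the 10 genes in dCD, 177 of 180 values kept their direction or lack of a call and their side of the threshold, and the other 3 were those of Epcam. In dKO, 154 of 180 values moved by no more than the spread between replicates, and the 26 that moved further kept the sign of every gene with non-overlapping libraries. The log2 fold change of Cdh1 ranged from -3.75 to -3.29 in dKO and from 0.75 to 0.81 in dCD, and that of Cdh3 in dKO, the gene with the fewest reads, from -3.36 to -1.70.

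With the replicate number as a block, 11533 genes were called in dKO and 9273 in dCD. Deviations of libraries with the same number correlated at -0.05 to 0.04, and those of libraries with different numbers at -0.065 to 0.073. Whether libraries of the same number shared a culture or a batch cannot be told from these values. The block changed no call among the 10 genes. The profile search for Cdh1 was not rerun under voom, quantile normalization, the block, 2 groups or left-out libraries.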
